A study of Mus musculus with 18 samples.

Results

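Nascent RNA was compared between S1 and S0-Low, the last and the first of the populations sorted before Ter119 appears in the erythroid lineage of the mouse fetal liver. The comparison takes 6 of the 18 libraries of the series, 3 of S1 and 3 of S0-Low, and covers all genes. S0-Low cells were lineage-negative, CD71-negative and Ter119-negative, a gate that the study describes as holding stem and progenitor cells and BFU-E (the earliest committed erythroid progenitors). S1 cells were lineage-negative, CD71-high and Ter119-negative, described as late CFU-E, the progenitors that follow BFU-E. S0-Medium, with an intermediate level of CD71, lies between them. All came from C57BL/6 embryos at e12.5 to e13.5, were rested for 6 h after sorting and were given 500 µM 4-thiouridine (4sU) for 45 min, so that RNA made in that time could be coupled to biotin, purified and sequenced (4sU-seq). The lineage antibodies, shared by both gates, were against CD41, CD45R, CD3e, CD11b and Ly-6G/6C, and antibody to CD71 set the gates themselves. Each gate is a range of surface staining and can hold cells of several types.

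Progenitors that commit to the red cell lineage stop transcribing genes of the stem cell and myeloid programmes, many of which are driven by ETS factors and homeobox factors. They come under the control of GATA1, KLF1 and TAL1, and depend on erythropoietin from the CFU-E stage on. Transferrin-bound iron is taken up through CD71 for heme, which is built by a chain of enzymes shared between mitochondria and cytosol, and spectrins, ankyrin and band 3 later form the red cell membrane skeleton.

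The antibody target and the classical progenitor marker checked the labels. Cd34 (chr1:194938821-194961292, GRCm38), which encodes a surface sialomucin of stem and progenitor cells, had normalized counts of 4525, 2431 and 3124 in S0-Low replicates 1 to 3, and of 3.84, 1.57 and 9.1 in S1. Normalized counts are counts scaled to a common effective library size. The groups did not overlap, and Cd34 was 694-fold lower in S1 by the ratio of means (3360 ± 1067 against 4.84 ± 3.86, SD, n = 3), with a fitted log2 fold change of -9.44 (SE 1.14, adjusted p = 0.00111, edgeR). Tfrc (chr16:32608896-32632794), which encodes CD71, had 8399, 12088 and 12756 in S0-Low and 50679, 44416 and 59504 in S1, with a fitted log2 fold change of 2.22 (SE 0.32, adjusted p = 0.00267). Since CD71 staining defined the gates, the difference in Tfrc is a check of the sort and not a finding. The labels name every population primary erythroblasts, and the levels of Cd34, Mpo and Ptprc in S0-Low given here go against that name.

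The libraries differed in depth and replicate 3 stood apart. Total counts were 9452476 to 35264717 in S0-Low, lowest in replicate 3, and 27734246 to 40567976 in S1. A floor of 3 counts per library was 0.317 CPM (counts scaled to the library total) in S0-Low replicate 3, the shallowest, and 0.0739 CPM in S1 replicate 1. Mitochondrial genes took 3.95 to 4.51% of counts in S0-Low and 6.03 to 6.95% in S1, a difference whose part in the results was not tested. In both populations replicate 3 was low for genes of ribosome biogenesis: Ncl, which encodes nucleolin, had 84967, 83193 and 24282 in S0-Low and 144381, 145163 and 28672 in S1. Of 21 tested genes of Myc and ribosome biogenesis, 19 were lowest in replicate 3 of both populations, against 4789 of all 16555 tested genes.

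At an adjusted p under 0.05, 162 genes were higher in S1 (0.979% of the 16555 tested) and 322 were lower (1.95%). The libraries of both populations did not overlap for any of these 484 genes, but neither did they for 2090 genes in all on the higher side (12.6%) and 2417 on the lower side (14.6%). Higher genes made up 33.5% of the calls, and 23.0% when libraries were scaled by their totals alone, a scaling that moved the median log2 fold change of all genes from 0.03 to -0.17. All 484 called genes kept their direction under it. The changes down were larger: the median fitted log2 fold change was 2.53 over the called rises and -6.09 over the called falls (2.44 and -6.02 with genes at 0 counts in a population put at their bound). In bulk libraries, fewer cells of a kind and less RNA per cell cannot be told apart, so a fall can be either.

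**Figure D1:**
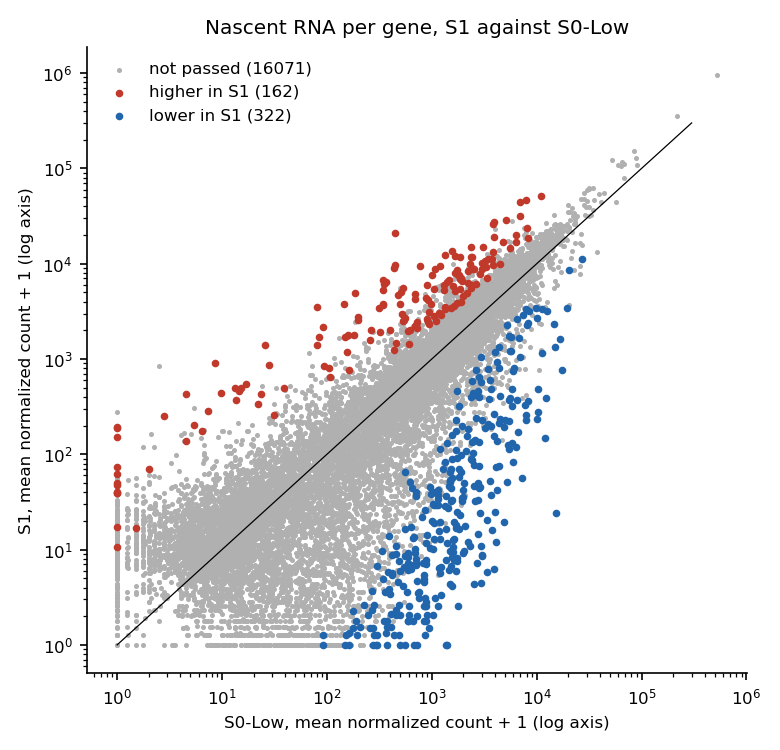
Mean normalized count plus 1 of each tested gene in S0-Low (x axis) and S1 (y axis), both on log axes, with the line of equal level. The 322 genes called lower in S1 (blue) lie much farther from the line than the 162 called higher (red), and the lowest row holds genes without a count in S1.

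Same-numbered libraries of both populations deviated from their group means together (correlations of 0.219 to 0.238), and a fit that kept the replicate number as a block called 465 genes higher and 534 lower, among them all 162 rises and 319 of the 322 falls. Calls fell in number whichever library was left out, and the part of the smaller number of libraries in this was not tested. Without S0-Low replicate 1, 36 genes were higher and 105 lower, without replicate 2 there were 83 and 212, and without replicate 3 there were 67 and 167. Without S1 replicate 1, 82 genes were higher and 69 lower, without replicate 2 there were 82 and 51, and without replicate 3 there were 56 and 63. With both libraries numbered 3 left out, a choice made after seeing the data, 7 genes were higher, among them Alas2, Sptb and Add2, and 4 were lower, namely Cd34, Cyth4, Il12a and 5830405N20Rik. Of 100 genes named by rule that passed the test, 16 rises and 15 falls were called with each of the 6 libraries left out in turn, and 18 were called in none of these fits. The 18 were Alad, E2f2, Hbb-bh1, Icam4, Nacad, Rrm1, Rrm2 and Tfr2 among the rises and Cd33, Csf2rb, Fli1, Fut7, Gata3, Hhex, Kcnip3, Nkx2-3, Pecam1 and Vav1 among the falls.

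**Figure D2:**
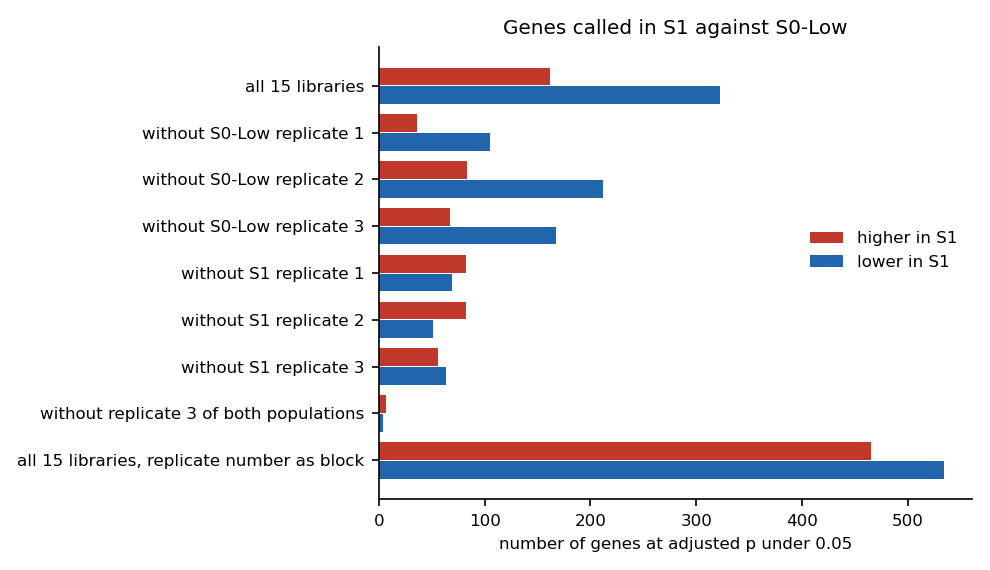
Number of genes at an adjusted p under 0.05 (x axis) higher (red) or lower (blue) in S1 than in S0-Low, in the fit of all 15 erythroid libraries, with single libraries or both replicate 3 libraries left out, and with the replicate number as a block. The counts run from 7 and 4 without both replicate 3 libraries to 465 and 534 with the block.

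Of 22 tested genes of the stem and progenitor programme, 14 were lower and 0 higher, with a median log2 fold change of -5.34 (-5.35 with genes at 0 counts at their bound) beside 0.03 over all tested genes. The block added Gata2, Myb, Runx1 and Etv6. Leaving out a library lowered the count of falls to between 3 (without S1 replicate 2) and 11 (without S0-Low replicate 2), and leaving out both replicate 3 libraries left Cd34.

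Meis1, a cofactor of HOX proteins, had normalized counts of 10302, 4862 and 8377 in S0-Low and 354, 187 and 135 in S1 (log2 fold change -5.12, SE 0.90, adjusted p = 0.00792). Hoxa9, a homeobox gene of stem and myeloid progenitor cells, had 1151, 720 and 159 in S0-Low and no count in any S1 library, which is at least 264-fold lower (adjusted p = 0.0117). Neither gene's libraries overlapped between the populations. Hhex, another homeobox gene, fell from 3271, 2973 and 2879 to 360, 305 and 21.2 (log2 fold change -3.73, SE 0.91, adjusted p = 0.0436), but was called in 0 of the 6 fits with 1 library left out.

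The other falls in the list included transcription factor genes and a receptor of early progenitors. Erg, an ETS factor needed by stem cells, had 3222, 1394 and 4270 in S0-Low and 3.07, 10.2 and 16.2 in S1 (log2 fold change -8.23, SE 1.10, adjusted p = 0.00267). Fli1, its close relative, had 9691, 5811 and 9018 against 540, 380 and 160 (log2 fold change -4.50, SE 1.09, adjusted p = 0.0368), a call lost with any of the 6 libraries left out. Mecom, the locus of the stem cell factor EVI1, had 3648, 984 and 1364 against 21.5, 3.15 and 0 (log2 fold change -7.88, SE 1.65, adjusted p = 0.0174). In each of these genes every S1 library lay under every S0-Low library. Flt3, a receptor tyrosine kinase of lymphoid and myeloid progenitors, had 4385, 3007 and 1553 against 8.45, 14.2 and 0 (adjusted p = 0.012). Hlf, Mycn, Ikzf2, Slamf1 and Cd27 also fell.

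Other early genes did not pass the test. Kit, the stem cell factor receptor, had 12487, 9744 and 22181 in S0-Low and 7595, 7269 and 4853 in S1 (log2 fold change -1.17, SE 0.90, adjusted p = 0.641), groups that did not overlap but did not pass the test. Gata2 had 7646, 8886 and 5109 against 397, 510 and 257 (log2 fold change -4.22, SE 1.16, adjusted p = 0.0654, and 0.0135 with the block). Myb had 21079, 22490 and 34379 against 8289, 7975 and 7305 (log2 fold change -1.73, SE 0.47, adjusted p = 0.0621, and 0.0411 with the block). Lmo2, a scaffold of the TAL1 complex in several blood lineages, had 10575, 13726 and 14764 against 7383, 8293 and 17938, which overlap.

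**Figure D3:**
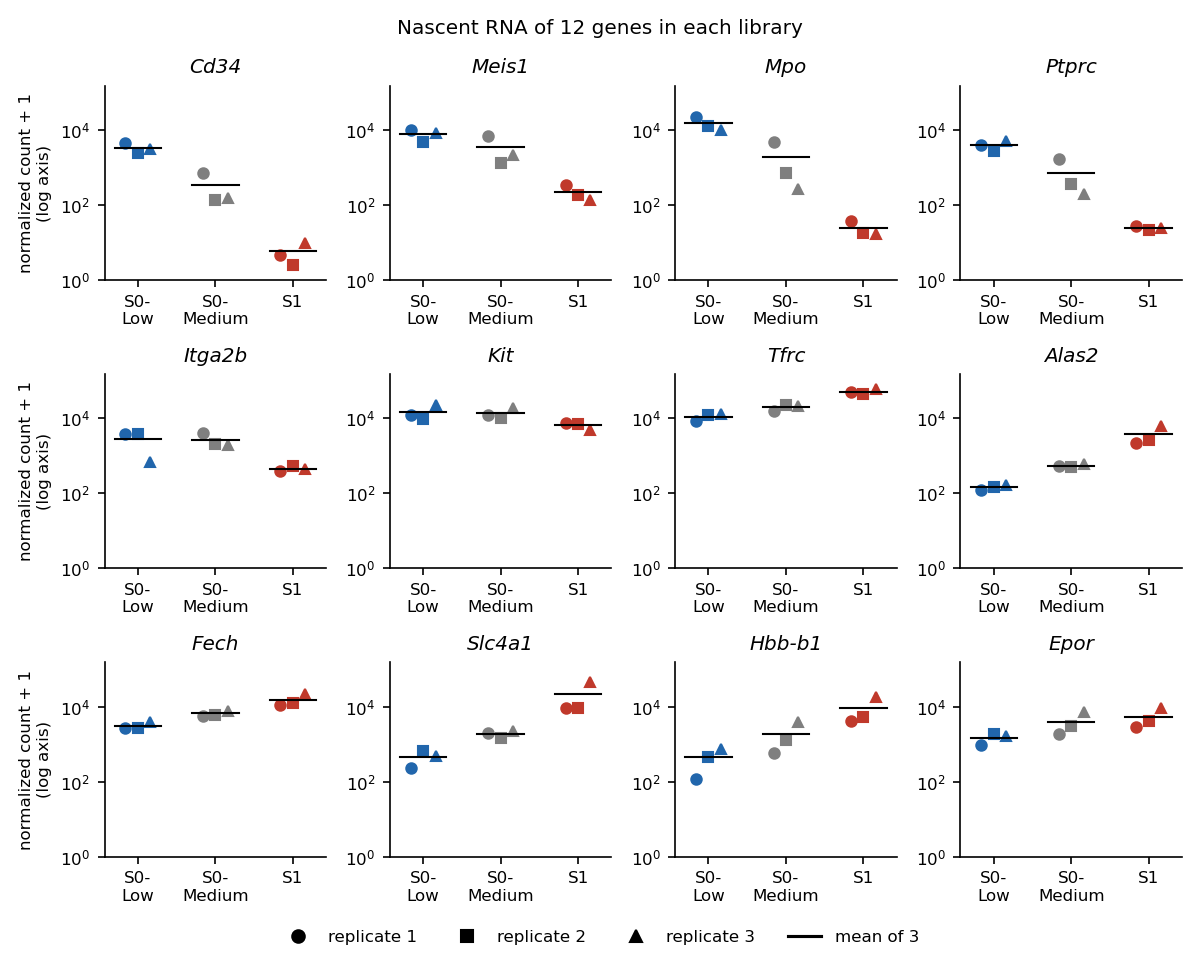
Normalized count plus 1 (log axis) of 12 genes in the 3 libraries each of S0-Low, S0-Medium and S1, with symbols for replicates 1 to 3 and a bar for the mean. Cd34, Meis1, Mpo and Ptprc drop stepwise toward S1, Tfrc, Alas2, Fech, Slc4a1 and Hbb-b1 climb, and the triangle of S1 replicate 3 is the highest S1 library for each of the genes in the climbing set.

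Among 12 tested granulocyte and monocyte markers 5 were lower in S1 and 0 higher, and 7 were lower with the block (median log2 fold change -6.95, or -6.22 at the bound), and the summed level of the list was 17650 to 32181 in S0-Low and 1839 to 2293 in S1. The falls numbered 1 without S1 replicate 1, 3 without S1 replicate 2, 2 without S1 replicate 3, 4 or 5 without an S0-Low library and 0 without both replicate 3 libraries. Mpo (chr11:87793784-87804412), the myeloperoxidase of neutrophil granules, had 22457, 13090 and 9915 in S0-Low and 36.1, 17.3 and 16.2 in S1 (log2 fold change -9.34, SE 1.31, adjusted p = 0.00255). Cebpa, the master factor of granulocyte commitment, had 2011, 1615 and 1601 against 6.15, 12.6 and 1.01 (log2 fold change -8.00, SE 1.35, adjusted p = 0.0112). For both genes the populations were wholly separate. Prtn3, Ctsg and Lyz2, which encode granule proteins and lysozyme, also fell. Spi1, the gene of PU.1, had 2920, 2416 and 1614 against 161, 190 and 23.3 (adjusted p = 0.0717, and 0.0249 with the block). Itgam and Irf8 were listed at 0 in all 18 libraries, as was Rpl13, a ribosomal protein gene, so a listing at 0 in this table is no sign that a gene was off.

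Other lineages had fewer called markers. Cpa3, a mast cell carboxypeptidase, had 700, 865 and 654 in S0-Low and 2.31, 3.15 and 2.02 in S1 (log2 fold change -8.14, SE 1.16, adjusted p = 0.00593), and was the 1 call among 3 tested mast cell and basophil markers. Of 13 megakaryocyte and platelet markers 2 fell, or 3 with the block: Plek, which encodes pleckstrin, with 5755, 6342 and 7634 against 164, 233 and 118 (log2 fold change -5.26, SE 0.99, adjusted p = 0.0112), and Itga2b with 3744, 3783 and 674 against 389, 551 and 438 (log2 fold change -2.57, SE 0.64, adjusted p = 0.0407). The list held 0 falls without S1 replicate 1, 2 or 3, or without both replicate 3 libraries, and Itga2b was called in 1 of the 6 fits with a library left out. Itga2b encodes CD41, against which an antibody of the lineage gate was directed. The lowest S0-Low value of Itga2b, in replicate 3, lay close above the S1 values. Of 9 lymphoid markers only Gata3 passed, with 83.9, 67.3 and 124 against 0, 0.787 and 0 (adjusted p = 0.0475), and the list held 0 calls with any of the 6 libraries left out and 2 with the block.

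Of 4 tested macrophage markers 0 passed in either direction by edgeR or with the block, and the list summed to 326 to 412 in S0-Low and 92 to 398 in S1. C1qa, C1qb and C1qc, which define tissue macrophages, had normalized counts of at most 3.03 in any of the 6 libraries and were not tested. The 18 hepatocyte and endothelial markers with an identifier were higher in S0-Low in sum, at 3107 to 9289 against 280 to 565 in S1. All 13 that were tested had a negative estimate (median log2 fold change -2.93). Of these Pecam1 and Tek fell (adjusted p = 0.038 and 0.012), both of which are also expressed by early blood progenitors, while Alb had 20.4, 48.4 and 275 in S0-Low and 20.8, 0.787 and 1.01 in S1 without passing. The list held 0 falls without S0-Low replicate 3, S1 replicate 1, S1 replicate 2 or both replicate 3 libraries, and 1 fall without any other library. The part of these cell types in the fall of other genes was not tested.

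Of 25 tested genes of leukocyte signalling and the actin cytoskeleton, 12 were lower and 0 higher (14 lower with the block), with a median log2 fold change of -3.45, and 25 of 25 had a negative estimate. Ptprc, which encodes the pan-leukocyte phosphatase CD45, had 3983, 2760 and 5149 in S0-Low and 27.7, 20.5 and 23.3 in S1 (log2 fold change -7.37, SE 0.97, adjusted p = 0.00255). Plcg2, a phospholipase downstream of immune receptors, had 13538, 8943 and 8152 against 644, 526 and 268 (log2 fold change -4.41, SE 0.63, adjusted p = 0.00267). Both genes were called with any of the 6 libraries left out. Coro1a, Lcp1 and Fmnl1, which act on actin, and Vav1 and Dock2, signalling proteins of leukocytes, fell as well. Spn, the leukocyte sialoglycoprotein CD43, had 7570, 8930 and 14425 against 4230, 4777 and 5691 and did not pass (log2 fold change -1.07, SE 0.35, adjusted p = 0.121). Without S1 replicate 2 the number of falls was 4, the lowest of the 6 fits, it was 10 without S0-Low replicate 2 or 3, and it was 0 without both replicate 3 libraries.

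Of 13 tested cytokine receptor genes other than Epor 3 were lower and 0 higher, and all 13 estimates were negative. With the block 5 were lower, Csf2rb2 and Tgfbr2 being added (adjusted p of 0.00302 and 0.0342, against 0.0768 and 0.0612 without it). Csf1r, the macrophage colony-stimulating factor receptor, had 1170, 864 and 1376 in S0-Low and 0.769, 3.93 and 0 in S1 (log2 fold change -9.35, SE 1.32, adjusted p = 0.00356). Csf3r, the granulocyte colony-stimulating factor receptor, had 1730, 1131 and 2477 against 2.31, 2.36 and 0 (adjusted p = 0.00437). Csf2rb, the common beta chain of the interleukin-3 and GM-CSF receptors, had 3936, 3455 and 2876 against 197, 397 and 32.4 (log2 fold change -4.03, SE 1.02, adjusted p = 0.0442), but was not called once any library was left out. Csf2ra, the alpha chain of the GM-CSF receptor, had a log2 fold change of -0.71 (adjusted p = 0.874) and did not pass. Without both replicate 3 libraries 0 of the 13 passed. Igf1r, a growth factor receptor used across tissues, had 17276, 9521 and 13680 against 11524, 7092 and 9366, which overlap.

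Of 15 tested genes of the erythropoietin receptor pathway 0 were higher and 1 was lower. Epor had 944, 1832 and 1619 in S0-Low and 2913, 4070 and 9208 in S1 (log2 fold change 1.88, SE 0.54), with every S1 library above every S0-Low library, but its adjusted p was 0.0752, and 0.00167 with the replicate block. Jak2, Stat5a and Stat5b, the kinase and the transcription factors that relay its signal, had log2 fold changes of 0.56, -0.54 and 0.06 (SE 0.55, 0.55 and 0.40). Grb2, an adaptor of receptor tyrosine kinase signalling, fell from 6761, 5642 and 6932 to 2908, 2532 and 2446 (log2 fold change -1.29, SE 0.27, adjusted p = 0.016) and was the call among the 15. It was lost in 4 of the 6 fits with 1 library left out, while DESeq2 called 1 gene of the list higher and 3 lower. With the block 1 gene was higher and 2 were lower, the second being Ptpn6, the phosphatase SHP-1, which had 5711, 4872 and 5417 against 878, 816 and 1024 (adjusted p = 0.0902, and 0.038 with the block). Cish, a feedback inhibitor that STAT5 induces, had 1446, 2353 and 389 in S0-Low and 3723, 5038 and 151 in S1, so that replicate 3 was far under its group in both populations, and Socs2 and Socs3, 2 more such inhibitor genes, had no count in S0-Low replicate 3.

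The list of heme synthesis and mitochondrial import held 8 rises and 0 falls among 15 tested genes, with a median log2 fold change of 2.28, and 12 rises with the block. The calls included the first erythroid step of the chain and the last. Alas2 (chrX:150547417-150570622), the erythroid aminolevulinate synthase that starts heme synthesis, had 122, 146 and 167 in S0-Low and 2205, 2671 and 6349 in S1, a 25.8-fold rise by the ratio of means (log2 fold change 4.70, SE 0.52, adjusted p = 0.00105). It was called with any library left out and also without both replicate 3 libraries. Alas1, the form of the same enzyme used by other tissues, had 1473, 1691 and 1344 against 842, 1008 and 934 (log2 fold change -0.69, SE 0.94, adjusted p = 0.863).

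Later enzymes that passed had smaller estimates than Alas2. Cpox, coproporphyrinogen oxidase, had 5484, 9364 and 6011 in S0-Low and 32072, 31423 and 32124 in S1 (log2 fold change 2.20, SE 0.30, adjusted p = 0.00255), and replicate 3 was level with the others. Fech, the ferrochelatase that inserts iron, had 2690, 2707 and 3844 against 11310, 12120 and 21468 (log2 fold change 2.28, SE 0.37, adjusted p = 0.00563). No library of S1 fell to the level of S0-Low in either gene. Alad and Ppox rose too, and Uros and Urod, the steps just before Cpox, had log2 fold changes of 2.40 and 1.69 with adjusted p of 0.119 and 0.101 (0.00183 and 0.00325 with the block). Slc25a37, mitoferrin-1, the iron importer of erythroid mitochondria, rose from 926, 1610 and 1437 to 7045, 6955 and 22581 (log2 fold change 3.20, SE 0.55, adjusted p = 0.00763), as did its partner Abcb10. The number of calls was 3 without S0-Low replicate 1, 5 without replicate 2 and 4 without replicate 3, 7, 6 and 4 without S1 replicates 1, 2 and 3, and 1 without both replicate 3 libraries.

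Of 13 genes of iron uptake and storage, Tfr2 and Fth1 rose beside Tfrc. Tfr2, the second transferrin receptor, had 863, 765 and 1058 in S0-Low and 2313, 2261 and 3334 in S1 (log2 fold change 1.56, SE 0.38, adjusted p = 0.0359). Fth1, the ferritin heavy chain, had 7374, 9537 and 7134 against 25453, 23817 and 21742 (log2 fold change 1.56, SE 0.30, adjusted p = 0.012). Ftl1, the ferritin light chain, had 3606, 3870 and 2856 against 7741, 7503 and 4889 (log2 fold change 0.96, SE 0.32, adjusted p = 0.127). Tfr2 was called in 0 of the 6 fits with 1 library left out and did not pass with library totals (adjusted p = 0.0875). The list held 1 or 2 rises with 1 library left out, of which Tfrc was 1 each time, and 0 without both replicate 3 libraries. The block brought the rises to 7, with Slc11a2, the endosomal iron transporter, Steap3, the ferrireductase, the iron exporter gene Slc40a1 and Glrx5 of iron-sulfur cluster assembly.

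Globin genes were already transcribed in S1. All 10 tested globin genes had positive estimates and 6 passed, or 7 with the block (median log2 fold change 4.90, or 4.47 at the bound). Hbb-b1, an adult beta globin gene, had 115, 462 and 740 in S0-Low and 4086, 5251 and 17522 in S1 (log2 fold change 4.36, SE 0.81, adjusted p = 0.0107), and Hba-a1, an adult alpha globin gene, had 137, 401 and 551 against 3466, 3703 and 11945 (log2 fold change 4.14, SE 0.77, adjusted p = 0.0107). The near-identical copies within each cluster share reads, so the split between Hba-a1 and Hba-a2, and between Hbb-b1 and Hbb-b2, is uncertain. Hbb-bh1, an embryonic beta-like gene, had no count in S0-Low and 13.1, 25.2 and 413 in S1, at least 36.9-fold higher (adjusted p = 0.0422). For every globin gene S1 replicate 3 was the highest library, and for Hbb-bh1 it holds most of the signal. Without S0-Low replicate 1 only 2 of the globin genes were called, without replicate 2 it was 3, and without both libraries numbered 3 it was 0.

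Of 28 tested genes of the red cell membrane and its transporters, 13 were higher and 0 lower (median log2 fold change 2.10), and 22 were higher with the block. Sptb, the beta chain of erythroid spectrin, had 7599, 9121 and 6864 in S0-Low and 46134, 40110 and 52316 in S1 (log2 fold change 2.55, SE 0.30, adjusted p = 0.00105). Ank1, which ties spectrin to the membrane, had 7178, 6852 and 6935 against 39243, 33524 and 60430 (log2 fold change 2.67, SE 0.37, adjusted p = 0.00255). Both genes were called with any of the 6 libraries left out in turn, and Sptb was 5.88-fold higher in S1 by the ratio of means.

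Slc4a1 and Kel rose from a lower base. Slc4a1 (chr11:102348820-102365281), the anion exchanger band 3, had 223, 651 and 465 in S0-Low and 9054, 9021 and 44979 in S1 (log2 fold change 5.56, SE 0.76, adjusted p = 0.00255). Kel, the Kell glycoprotein, had 997, 1879 and 1773 against 8881, 14086 and 18310 (log2 fold change 3.15, SE 0.43, adjusted p = 0.00255). Both were called with any of the 6 libraries left out. Rhag, Add2, Mpp1, Epb42, Dmtn, Icam4, Tspan33 and Cldn13 also rose. The number of rises was 8 without S0-Low replicate 1, 9 without S0-Low replicate 2 or without S1 replicate 3, 11 or 12 without the others, and 2 without both replicate 3 libraries.

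**Figure D4:**
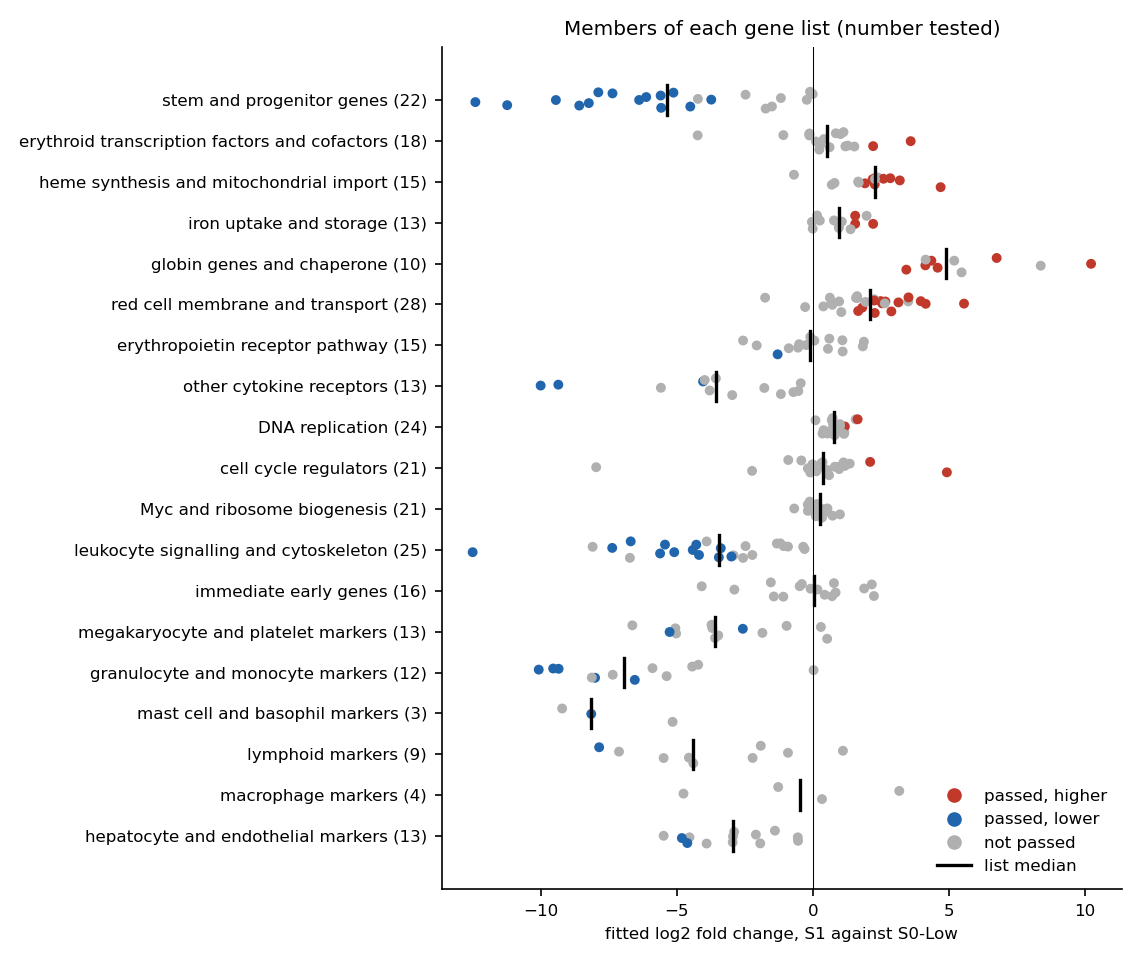
Fitted log2 fold change of S1 against S0-Low (x axis) of each tested member of 19 gene lists (rows, number tested in brackets), with members that passed in red (higher) or blue (lower), others in grey, and a bar at the list median. Heme, globin and membrane lists hold only rises among their calls, and stem, leukocyte and other-lineage lists only falls.

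Most erythroid transcription factors did not pass the test. Gata1 had 2585, 3685 and 6649 in S0-Low and 5622, 6260 and 11351 in S1 (log2 fold change 0.85, SE 0.41, adjusted p = 0.321, and 0.0384 with the block). Klf1 had 2462, 3431 and 6571 against 7316, 8925 and 19678 (log2 fold change 1.53, SE 0.51, adjusted p = 0.128, and 0.00385 with the block). The ranges of Gata1 overlapped and those of Klf1 did not. Tal1 had a log2 fold change of 0.62 (SE 0.34, adjusted p = 0.42) and Bcl11a, a repressor of fetal and embryonic globin genes, of 0.41 (SE 0.50, adjusted p = 0.827). Of 18 tested factors and cofactors 2 passed: Sox6, a repressor of embryonic globin genes, and E2f2, an E2F factor of terminal erythroid divisions, which had 1449, 1631 and 1278 against 4315, 4134 and 11852 (log2 fold change 2.22, SE 0.54, adjusted p = 0.0359). Sox6 had 354, 510 and 1467 in S0-Low and 8100, 4003 and 15997 in S1 (log2 fold change 3.60, SE 0.78, adjusted p = 0.0216). Without S0-Low replicate 1, S0-Low replicate 2, S1 replicate 1 or S1 replicate 3 none of the 18 was called, and with the block 6 were higher and Cbfa2t3, a corepressor gene, was lower.

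All 24 tested genes of DNA replication had a positive estimate (23 of 24 with library totals), as did 8502 of all 16555 tested genes, with a median log2 fold change of 0.79, and 2 passed, against 6 with the replicate block and 0 with RLE factors or at least 10 counts in each compared library. Rrm2, the regulatory subunit of ribonucleotide reductase, had 6261, 8463 and 4265 in S0-Low and 16843, 17474 and 25448 in S1 (log2 fold change 1.65, SE 0.40, adjusted p = 0.0366), and Rrm1, the large subunit, had 8135, 9147 and 7339 against 15146, 16681 and 24018 (log2 fold change 1.18, SE 0.31, adjusted p = 0.0495). Neither was called once any of the 6 libraries was left out. The Mcm2 to Mcm7 helicase genes had log2 fold changes between 0.40 and 0.95. Of these Mcm4 passed with the block (adjusted p = 0.0221, against 0.083 without it), as did Pcna, the sliding clamp, Cdc6, a loader of the helicase, and Rfc4 of the clamp loader. S1 replicate 3 was the highest S1 library in 23 of the 24 genes.

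Among 21 cell cycle regulators 2 rose, and 5 rose and 1 fell with the block. Ccne1, the cyclin of entry into S phase, had 2590, 3516 and 783 in S0-Low and 8147, 9454 and 12148 in S1 (log2 fold change 2.11, SE 0.50, adjusted p = 0.033). Cdkn2c, which encodes the CDK4 and CDK6 inhibitor p18, had 6.28, 34.1 and 0 against 232, 312 and 834 (log2 fold change 4.93, SE 1.06, adjusted p = 0.0208). Both groups were clear of each other in each gene. With 1 library left out the list held 0 to 2 rises, 0 of them without S0-Low replicate 1, S0-Low replicate 3 or S1 replicate 3. Without S0-Low replicate 3 it held 1 fall. The rises gained with the block were Ccne2 and Ccna2, a second E-type and an A-type cyclin, and the E2F factor gene E2f4 (adjusted p of 0.0318, 0.0236 and 0.0424). D-type cyclin genes differed in replicate 3: Ccnd3 had 5118, 4644 and 28204 in S1, and Ccnd1 had 1798, 1645 and 0 in S0-Low (adjusted p = 0.0710 for the comparison with S1, and 0.0376 with the block). Myc had 20744, 27961 and 17014 against 14008, 18057 and 8859, and of its list of 21 genes 0 passed by edgeR or with the block. None of the 16 immediate early genes passed either, and with the block Dusp1 alone was higher, at 226, 165 and 230 against 559, 608 and 1620.

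The 15 largest rises and 15 largest falls named by rule held genes outside these lists. Slc2a4 (chr11:69942286-69948216), the insulin-responsive glucose transporter GLUT4, had no count in S0-Low and 23.8, 51.2 and 508 in S1, at least 47.8-fold higher (adjusted p = 0.0189). Most of its signal and of this bound rests on S1 replicate 3, and it was called in 2 of the 6 fits with 1 library left out. Trim10, a RING finger gene of erythroid cells, had 13.3, 140 and 83.3 against 1656, 2175 and 6712 (log2 fold change 5.48, SE 0.86, adjusted p = 0.00474) and was called with any library left out, as was Popdc2. Nacad, Butr1, Adra2b, Gm14198, Gm867, Mst1, Myh7b and Hbq1b completed the rises together with Slc4a1, Hbb-bh1, Cdkn2c and Mir451. In 137 of the 162 called rises S1 replicate 3 was the highest S1 library, against 6339 of 16555 genes.

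Mir451 (chr11:78073170-78073241) is the gene of a microRNA abundant in red cells, whose mature form matters here since it is the product by which the locus is known. From RefSeq on GRCm38.p6, on the + strand at chr11:78073186-78073207, it reads as follows, with the seed (bases 2 to 8) in capitals.
mmu-miR-451a: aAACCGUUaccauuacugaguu
The table counts nascent reads given to the gene entry and not the mature microRNA, and the entry Mir451b overlaps it on the opposite strand. Mir451 had 4.71, 69.6 and 0 in S0-Low and 259, 854 and 3071 in S1 (log2 fold change 5.69, SE 1.47, adjusted p = 0.0493), with no overlap. It did not pass with library totals (adjusted p = 0.0543) and was called in 1 of the 6 fits with 1 library left out. S0-Medium had a mean of 460.

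Most of the 15 largest falls had no count in S1. Ccl9, a chemokine, had 532, 595 and 3068 in S0-Low and no count in S1, at least 545-fold lower (adjusted p = 0.00327). Gpr171, a G protein-coupled receptor gene, had 839, 897 and 2392 and no count, at least 536-fold lower (adjusted p = 0.00255). S0-Low replicate 3 was the highest library for both. Hgf, which encodes hepatocyte growth factor, had 520, 264 and 864 and no count in S1, at least 214-fold lower (adjusted p = 0.00628). Clec7a, Cd33, Fut7, Pik3r5, Nkx2-3 and Kcnip3 also had no count in S1, and Cd96, Serpinb1a and Kcnk12 had at most 1 count in any S1 library. S0-Low replicate 3 was the highest S0-Low library in 175 of the 322 falls, replicate 1 in 128 and replicate 2 in 19, against 5191, 6119 and 5245 of all 16555 tested genes.

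The intermediate population S0-Medium fell between in level. Its mean lay between those of S0-Low and S1 for 161 of the 162 rises and 322 of the 322 falls, against 9463 of all 16555 tested genes, a description that rests on the S0-Low and S1 libraries that chose the genes. The larger log2 step was the first, from S0-Low to S0-Medium, for 86 of the rises but for 33 of the falls. The rises had median log2 steps of 1.21 and then 1.26, and the falls of -1.92 and then -3.94. Of the 322 falls, 43 had at most 3 counts in each S1 library, so the size of their second step is uncertain. Mpo showed the pattern of the falls, with a mean of 1959 in S0-Medium between 15154 ± 6521 in S0-Low and 23.2 ± 11.2 in S1 (SD, n = 3). The S0-Medium libraries varied widely, as the granulocyte and monocyte list that includes Mpo summed to 1192 to 8117 there. Tfrc stood at 19938 ± 3766 in S0-Medium, between 11081 ± 2347 and 51533 ± 7580, and passed the test in neither step. The difference between rises and falls in the size of these steps was not tested.

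**Figure D5:**
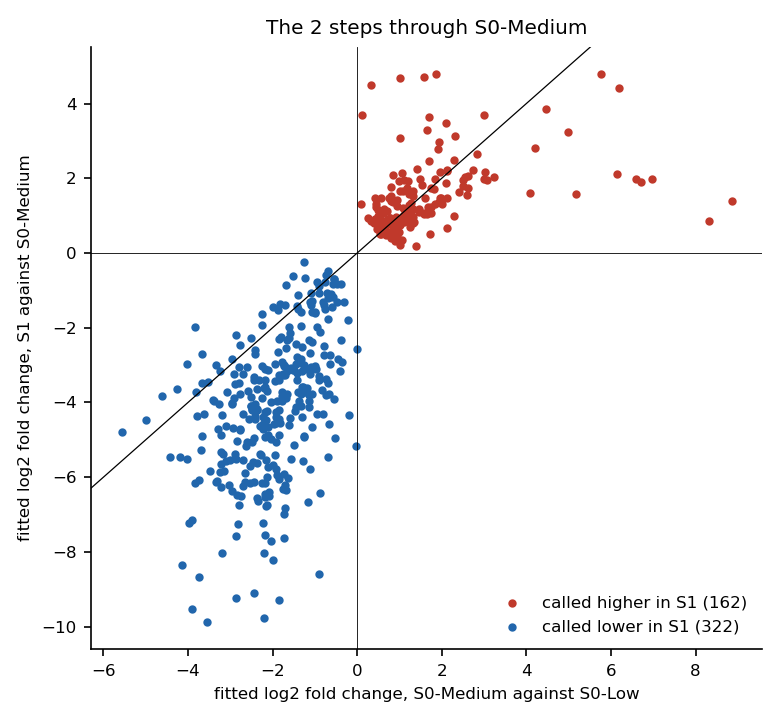
Fitted log2 fold change of S0-Medium against S0-Low (x axis) and of S1 against S0-Medium (y axis) for the genes called higher (red, 162) or lower (blue, 322) in S1, with the line where both steps are equal. Most falls lie under the line, where the second step is the larger, and the rises lie on both sides of it.

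The later step from S2 to S3 (CD71-high cells with medium and high Ter119, 3 libraries each) shares no library with S1 against S0-Low. There 540 genes were higher in S3 (3.26% of those tested) and 1008 lower (6.09%), 1548 in all. That number was 692 to 2375 with 1 library left out, 98 when S2 and S3 were fitted alone and 3332 with DESeq2, so the overlaps given next hold for the fit of all 15 libraries. Of the 162 genes that rose into S1, 48 (29.6%) rose again from S2 to S3 and 5 (3.1%) fell. Of the 322 genes that fell into S1, 10 (3.1%) rose later and 46 (14.3%) fell, with 13 of the 322 at 0 counts in S1 already. Rises in both steps included Alas2, Cpox, Ppox, Fech and Slc25a37 of the heme list, Hba-a1, Hba-a2, Hbb-b1 and Hbb-b2, and Sptb, Ank1, Slc4a1, Rhag, Kel, Dmtn and Mpp1 of the membrane list. Alas2 went from a mean of 13379 in S2 to 103511 in S3 (log2 fold change 2.95, adjusted p = 0.00185), which is far above its 3742 ± 2270 in S1. Kit, which had not passed between S0-Low and S1, fell at this later step from a mean of 2245 to 26.5 (log2 fold change -6.30, adjusted p = 0.00369), and Myb fell there as well.

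Promoter sequences of the called genes were searched for 4 short motifs in the RefSeq windows (GRCm38.p6) that run from 250 bases before to 50 after the first listed start of each gene. A window was matched for 121 of the 162 rises, 254 of the 322 falls and 10734 of all tested genes. The GATA letters AGATAA, on either strand, were in 16.5% of the windows of rises, 7.87% of those of falls and 6.69% of all. The KLF letters CCACNCCC were in 33.9%, 24.4% and 23.1%. The ETS letters AGGAAG were in 28.1%, 46.5% and 33.0%, and the E-box CACGTG was in 9.92%, 4.72% and 10.0%. Rises thus held the GATA and KLF letters more often than all tested genes, and falls the ETS letters, as a description without a test, and each motif was counted on its own even where matches overlap. A match is not a bound site. The windows of Alas2 (chrX:150547167-150547466, + strand) and Epb42 (chr2:121036828-121037127, - strand) are shown for 2 erythroid rises with the GATA letters, and those of Mpo (chr11:87793534-87793833, + strand) and Cd33 (chr7:43533122-43533421, - strand) for 2 myeloid falls with 3 ETS matches each. The Cd33 window lies inside the listed span of the gene (chr7:43527399-43537424), at an internal start and not at its 5' end. Each window is written along the strand of its gene, and capitals mark matches to any of the 4 motifs on either strand.
Alas2: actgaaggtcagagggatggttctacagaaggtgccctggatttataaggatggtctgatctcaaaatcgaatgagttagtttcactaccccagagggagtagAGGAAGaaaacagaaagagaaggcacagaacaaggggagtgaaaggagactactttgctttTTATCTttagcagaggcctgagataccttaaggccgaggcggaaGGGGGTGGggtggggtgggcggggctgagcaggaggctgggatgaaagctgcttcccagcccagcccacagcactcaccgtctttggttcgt
Epb42: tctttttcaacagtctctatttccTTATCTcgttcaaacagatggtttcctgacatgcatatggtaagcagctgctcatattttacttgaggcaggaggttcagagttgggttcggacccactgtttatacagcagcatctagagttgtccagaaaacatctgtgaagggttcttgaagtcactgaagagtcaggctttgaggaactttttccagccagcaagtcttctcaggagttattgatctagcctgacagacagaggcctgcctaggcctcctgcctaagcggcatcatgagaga
Mpo: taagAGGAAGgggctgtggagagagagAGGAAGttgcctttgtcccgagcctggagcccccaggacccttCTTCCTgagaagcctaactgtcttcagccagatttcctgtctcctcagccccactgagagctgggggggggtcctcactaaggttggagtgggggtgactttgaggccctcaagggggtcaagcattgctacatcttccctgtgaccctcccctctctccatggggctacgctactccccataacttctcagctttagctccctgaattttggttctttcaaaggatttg
Cd33: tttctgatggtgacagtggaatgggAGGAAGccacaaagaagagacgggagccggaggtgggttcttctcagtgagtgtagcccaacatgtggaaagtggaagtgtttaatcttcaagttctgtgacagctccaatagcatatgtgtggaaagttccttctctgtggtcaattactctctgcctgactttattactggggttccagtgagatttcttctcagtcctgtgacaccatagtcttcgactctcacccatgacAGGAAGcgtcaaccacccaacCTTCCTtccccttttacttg
Alas2 holds 1 match each to the GATA, KLF and ETS letters and Epb42 holds 1 to the GATA letters. Epb42, which encodes the membrane skeleton protein 4.2, had 147, 247 and 621 in S0-Low and 2526, 3384 and 9847 in S1 (log2 fold change 3.97, SE 0.77, adjusted p = 0.012). Cd33, a sialic acid-binding receptor of myeloid cells, had 126, 195 and 803 against no count, at least 146-fold lower (adjusted p = 0.0425).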

How the data were processed

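The 15 erythroid libraries (3 from each of 5 populations) entered the fit. The authors made stranded libraries with PCR and no molecular identifiers, so counting error is a lower limit, and quantified them with Kallisto 0.43.0 (GRCm38, per the labels' processing notes). The deposited values are estimated counts, whole and without normalization. The transcript set and treatment of introns are not given in the sources used here, and near-identical genes share reads. Of 54232 identifiers listed, 16555 passed filterByExpr. Counts were scaled by TMM and tested, two-sided, with the quasi-likelihood method of edgeR 4.0.16 (R 4.3.3) at a Benjamini-Hochberg adjusted p under 0.05. The common biological coefficient of variation was 0.795. All populations shared 1 estimate of the spread.

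Floors for genes without a count were 3 counts per library. The study calls the libraries biological replicates. What a shared replicate number stands for is not stated, but deviations of same-numbered S0-Low and S1 libraries correlated over genes (0.238, 0.223 and 0.219), and every library correlated best with its own number, so counts of calls from a fit with the number as a block are given beside those they change. DESeq2 1.42.0, RLE factors, library totals, other filters, fewer libraries and globin genes left out were the other alternatives. On simulated data of the S1 and S0-Low comparison (12672 genes tested) the test recovered 0% of 62 genes changed 2-fold, 20% of 70 changed 4-fold and 57.4% of 68 changed 16-fold, and called 1 unchanged gene. The simulation took genes with a mean above 1 CPM and held no effect of the replicate number. Apart from the changed genes in S1, each gene had the same mean in all populations, unlike in the real data.

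Genes were named if they belong to 1 of 19 lists (344 genes) that is discussed, or to the 15 largest rises or falls by log2 fold change with a symbol, an adjusted p under 0.05, 1 direction in 3 of 3 same-numbered pairs and 100 normalized counts or more as the mean of the higher population. Genes lacking an identifier or a symbol were left out, and genes listed at 0 in every library were not tested. Cyth4, Il12a and 5830405N20Rik were named after their values were seen. Some genes that the rule covers are not reported here. The comparison and the lists were chosen with earlier results of these data known. Coordinates and sequences are from RefSeq GRCm38.p6, matched by symbol or synonym. Figures were drawn with matplotlib 3.10.9.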

Additional observations from a re-analysis of the deposited data

How the results depend on the processing

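Against 162 genes higher and 322 lower in S1, DESeq2 called 375 and 1253, no filter on low counts 348 and 791, at least 10 counts in each compared library 104 and 168, and the replicate number as a block 465 and 534. The fit of only the 6 compared libraries called 1020 lower genes. Leaving out 1 library gave 36 to 83 higher and 51 to 212 lower genes, and leaving out both libraries numbered 3, chosen after seeing the data, gave 7 and 4. RLE factors, library totals and the removal of globin genes kept both counts within 1.5 times. Against 1548 genes changed in S3 against S2, DESeq2 called 3332, library totals 2552, no filter 2546, the replicate block 3074 and the fit of these 6 libraries alone 98, and leaving out 1 library gave 692 to 2375.

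The block ended the call of no named gene, and the calls it added among them are given beside their results. No named gene that passed the test changed direction under any alternative. Among those that did not pass, Stat5b turned from 0.06 to a log2 fold change of -0.12 with DESeq2, -0.12 with RLE factors, -0.13 with library totals, -0.11 without both libraries numbered 3, and lay between -0.20 and 0.24 with 1 library left out, below 0 without S0-Low replicate 1, S0-Low replicate 2 or S1 replicate 3. With 1 library left out Jak2 lay between -0.02 and 0.99 and Ccnd3 between -0.45 and 1.31, both below 0 without S1 replicate 3, and Ccnd3 was at -0.50 without both libraries numbered 3. The cause was not tested in any of these cases. With 3 libraries per population and this spread, no gene changed 2-fold was recovered in the simulation, which is simpler than the real data. In S0-Low replicate 3 the depth limits genes with few counts.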
